A study of Mus musculus with 12 samples.

Results

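The late neutrophil granule and function genes are 34 mouse genes chosen by symbol for their roles in maturing neutrophils, the short-lived phagocytes that marrow makes in the largest numbers. The list covers secreted granule proteins, metalloproteases, subunits of the phagocyte oxidase, receptors for chemoattractants, surface proteins and a few cytoplasmic and membrane proteins. Of the 34 listed symbols, 33 were among the 19910 genes of the count table, and all 33 passed the low-count filter that left 10993 genes for testing. Ly6g was not analysed here. The genes were read in bone marrow cells of C57Bl/6 mice in 4 groups, with 3 RNA-seq libraries in each. The marrow came from female C57BL/6J donors aged 6 to 10 weeks, and every group was made by transducing it with a pair of retroviral vectors. The empty group carried a pair of EMPTY vectors, the SETBP1 group carried SETBP1 (D868N) with EMPTY, the NRAS group carried EMPTY with NRAS (G12D), and the group called both carried SETBP1 (D868N) with NRAS (G12D). SETBP1 is a nuclear protein, and NRAS is a small GTPase that passes growth factor signals to the MAPK pathway. The labels call all 12 samples murine leukemia cells, the empty group included, and do not say what promoter drove the introduced genes, whether cells were cultured or transplanted, or whether the replicates came from separate mice. P-values therefore measure only the spread between these libraries, which may be technical.

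Neutrophils fill their granules in order as they mature. Primary granules, with myeloperoxidase and elastase, are loaded first in promyelocytes. Specific granules, with lactoferrin, cathelicidin and lipocalin, are loaded next in myelocytes and metamyelocytes, and gelatinase granules follow in band cells. The oxidase and the receptors that guide the cell to bacterial products are completed toward the end of the process. The transcription factor C/EBP-epsilon, the product of Cebpe, is needed for the specific granule genes.

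Total counts ran from 7085894 to 8864919 per library. As a check of the labels, Nras had 626 to 741 counts in the empty libraries and 10517 to 13502 in those with NRAS, while Setbp1 had 0 counts in all empty and NRAS libraries, 5 to 7 with SETBP1 and 11 to 17 with both. SETBP1 replicate 3 stood apart: its log2 expression correlated at 0.946 and 0.953 with the rest of its group, against 0.984 to 0.991 for all other pairs within groups, and 11835 genes had a count in it, the fewest of any library. Tests of the 33 genes against the SETBP1 group are given with and without it, and levels are given for all 3 libraries. In the markers for the marrow label, the globin genes Hba-a1, Hba-a2, Hbb-bs and Hbb-bt were at 0 in all libraries. The summed level of 8 erythroid genes was at most 10.8 normalised CPM (counts per 1000000 of the scaled library size). The T cell gene Cd3e was at 0 as well, but Lck, also among the 5 T cell genes, had 35 to 80 counts in a library. These 5 genes summed to 4.33 to 10.7 normalised CPM. Neutrophil genes were present in every library, with Mpo, a promyelocyte gene, at 15335 ± 795 normalised CPM (SD, n = 3) in the empty group.

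The granule genes Camp, Ngp and Ltf, whose RNA was among those that differed most between the groups, lie in this order on chromosome 9, with 570 kb between Camp and Ngp and 596 kb between Ngp and Ltf. Their sequences before the transcription start are shown, with those of the surface protein genes Cd177 and Itgb2l and of Trem1, a surface receptor gene whose RNA rose with NRAS. They are from RefSeq in build GRCm38.p6, read 5′ to 3′ on the gene's strand, and stop where an annotated exon of the gene or its RefSeq gene span begins. Capitals mark each match, on either strand, to the letters TTNNGNAA, which resemble the sites of C/EBP factors. Ltf lies at chr9:111019042-111019270 (plus), Ngp at chr9:110419558-110419746 (plus), Camp at chr9:109849618-109849706 (minus), Cd177 at chr7:24760335-24760561 (minus), Itgb2l at chr16:96443665-96443864 (minus) and Trem1 at chr17:48232489-48232712 (plus).
Ltf: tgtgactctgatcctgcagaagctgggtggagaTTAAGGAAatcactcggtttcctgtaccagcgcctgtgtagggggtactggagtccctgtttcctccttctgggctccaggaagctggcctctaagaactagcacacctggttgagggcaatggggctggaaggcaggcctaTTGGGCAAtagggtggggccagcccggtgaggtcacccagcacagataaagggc
Ngp: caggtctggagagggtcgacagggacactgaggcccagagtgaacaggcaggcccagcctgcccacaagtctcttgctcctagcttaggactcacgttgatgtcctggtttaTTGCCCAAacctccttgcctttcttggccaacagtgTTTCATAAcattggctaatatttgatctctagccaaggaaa
Camp: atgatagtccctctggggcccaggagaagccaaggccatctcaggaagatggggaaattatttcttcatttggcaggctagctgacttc
Cd177: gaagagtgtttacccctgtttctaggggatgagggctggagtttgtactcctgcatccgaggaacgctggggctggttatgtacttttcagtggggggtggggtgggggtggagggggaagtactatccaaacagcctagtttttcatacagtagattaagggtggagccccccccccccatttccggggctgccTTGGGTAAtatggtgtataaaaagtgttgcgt
Itgb2l: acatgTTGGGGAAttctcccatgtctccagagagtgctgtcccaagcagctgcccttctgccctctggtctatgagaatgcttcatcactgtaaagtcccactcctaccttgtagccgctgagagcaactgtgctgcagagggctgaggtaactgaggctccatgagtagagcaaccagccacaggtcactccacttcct
Trem1: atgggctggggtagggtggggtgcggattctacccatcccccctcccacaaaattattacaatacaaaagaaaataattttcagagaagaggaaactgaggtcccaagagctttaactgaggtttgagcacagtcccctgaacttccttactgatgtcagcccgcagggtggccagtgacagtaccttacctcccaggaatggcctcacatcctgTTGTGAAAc
The shown stretches hold 2 such matches for Ltf and 2 for Ngp, 1 each for Cd177, Itgb2l and Trem1, and none for Camp, for which only 89 bases are shown. All 250 bases before the start held none for Camp and 3 for Ngp. Of the 34 genes, 28 had an entry in the RefSeq promoter table, and 16 of these (57.1%) held the letters at least once in the 250 bases before the start, against 36.9% of 27025 promoters in the table. GAGGAA, which resembles sites of PU.1 and other ETS factors, was in 15 of the 28 (53.6%), against 23.1% of all. TGTGGT, which resembles RUNX sites, was in 4 (14.3%), against 14.2% of all. Each was searched on both strands, and TTNNGNAA can end in GAGGAA, so a stretch can match both. A match describes the letters and does not show a bound site. The stretches of Trem1, whose RNA rose with NRAS, and of Ltf, whose RNA fell, both hold a match to TTNNGNAA. A relation of the letters to the RNA changes was not tested.

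Together the 33 genes took 1.88 ± 0.0767% of all counts in the empty libraries (SD, n = 3; 1.79 to 1.94%). Their share was 1.23 ± 0.187% with SETBP1 (1.04 to 1.41%), 0.71 ± 0.0483% with NRAS (0.667 to 0.762%) and 0.445 ± 0.0193% with both (0.426 to 0.464%). The ranges of the 4 groups did not overlap. Chil3 and Ngp were the largest parts of the share in the empty group and weigh most in it. Their means were 6298 and 4248 normalised CPM in empty, and 1034 and 258 with both. All 33 genes summed to 17262 to 18401 in the empty libraries and 4367 to 4886 with both. In bulk RNA, fewer maturing neutrophils and less RNA of these genes per cell cannot be told apart. The heat map of all 33 genes shows that the order of the 4 shares does not hold for each gene. Most had their lowest mean with both, while Trem1, Mmp9, Ceacam1 and Fpr1, for example, did not. Retnlg had its lowest mean with both, but its mean with NRAS was near that of empty. The values of each gene are given with the change in 4 comparisons, in which a gene passed at an adjusted p under 0.05. Of all 10993 genes tested, 14.9% passed with SETBP1 against empty, 32.5% with NRAS against empty, 1.91% with both against NRAS and 42.4% with both against SETBP1. Groups without overlap were common among all genes. In the same order, 16.5, 27.9, 12.9 and 24% were lower without overlap, and 16.7, 28.4, 12.3 and 24.8% were higher.

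**Figure D1:**
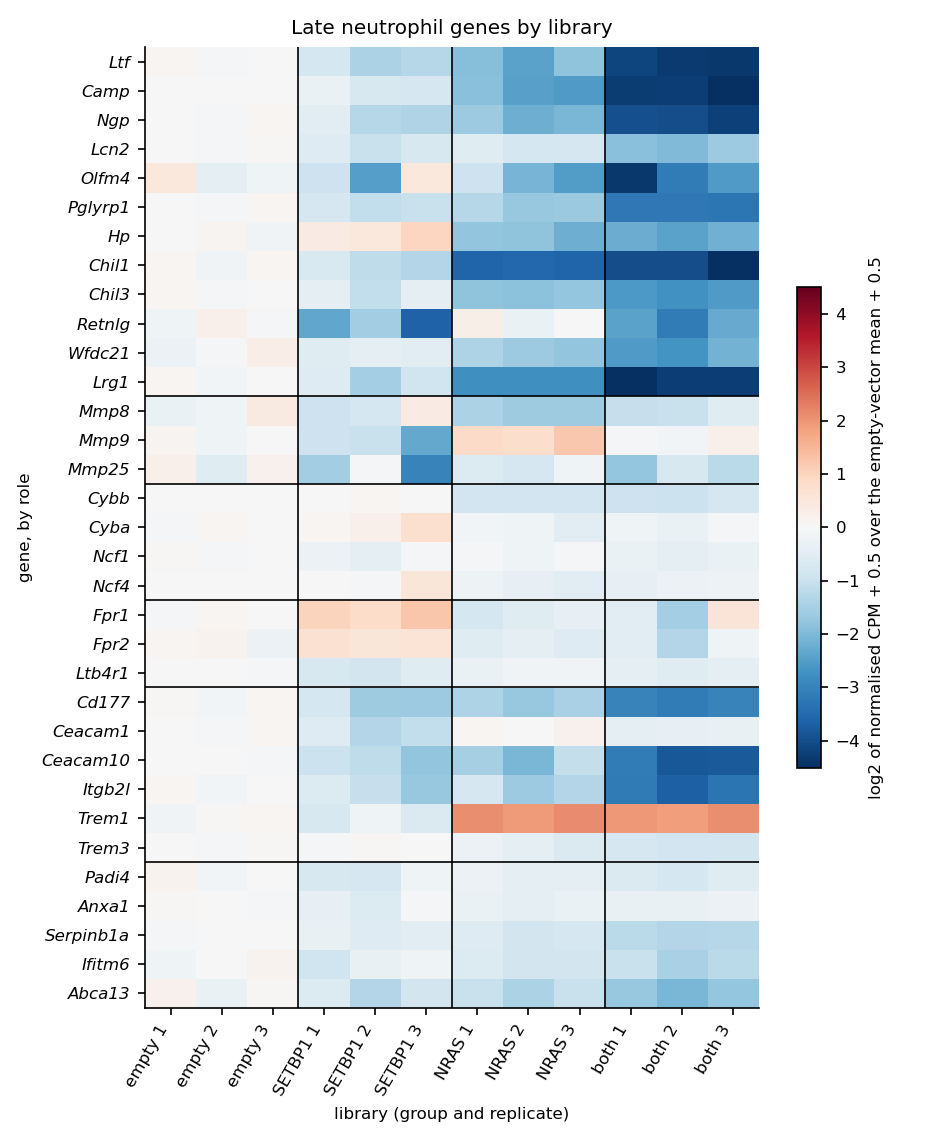
Each row is 1 of the 33 genes, grouped by role, and each column 1 of the 12 libraries; colour gives the log2 ratio of normalised CPM + 0.5 to the mean of the empty group, blue lower and red higher. The secreted granule genes form the darkest blue block in the 3 libraries with both, and Trem1 is red in the 6 libraries with NRAS.

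The secreted granule proteins were 12 of the 33 genes and held the largest differences. Ltf encodes lactoferrin, an iron-binding protein of specific granules. Its normalised CPM was 1174, 1037 and 1100.3 in the empty libraries, 645, 410.2 and 454 with SETBP1, 292, 208 and 311 with NRAS, and 62.1, 55.4 and 53.5 with both. The 4 groups did not overlap, and the mean with both was 5.16% of the empty mean. Ltf fell by 1.13 on the log2 scale with SETBP1 against empty (SE 0.16, adjusted p 0.00167) and fell by 2.03 with NRAS against empty (SE 0.17, adjusted p 7.55e-07). It fell by 2.25 with both against NRAS (SE 0.17, adjusted p 3.19e-05) and fell by 3.14 with both against SETBP1 (SE 0.18, adjusted p 1.74e-08). All rises and falls below are on this scale. When SETBP1 replicate 3 was left out, the values of Ltf were -1.06 against empty and -3.21 for both against SETBP1, and both passed.

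Camp encodes cathelicidin, an antimicrobial peptide precursor. Its normalised CPM was 294, 291 and 296 in the empty libraries, 241, 178 and 172 with SETBP1, 79.2, 53.9 and 49.9 with NRAS, and 14.7, 15.1 and 12.1 with both. No groups overlapped, and the step from empty to SETBP1 was the smallest. Camp fell by 0.58 with SETBP1 against empty (SE 0.15, adjusted p 0.0264), fell by 2.27 with NRAS against empty (SE 0.16, adjusted p 2.58e-07), fell by 2.13 with both against NRAS (SE 0.19, adjusted p 4.83e-05) and fell by 3.82 with both against SETBP1 (SE 0.19, adjusted p 5.18e-09). The last was the largest fall of any of the 33 genes in the 4 comparisons. The smallest, with SETBP1 against empty, was lost under 5 of 20 other settings: in the fit on these 2 groups alone, without any 1 of the empty libraries and without SETBP1 replicate 2, with an adjusted p of up to 0.0956. Camp stood at -0.48 against empty and -3.91 for both against SETBP1 without SETBP1 replicate 3, and both passed.

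Ngp encodes neutrophilic granule protein, a specific granule protein related to the cathelicidin precursors. Its normalised CPM was 4232, 4024 and 4488 in the empty libraries, 3039, 1764 and 1678 with SETBP1, 1354, 933 and 1019 with NRAS, and 276, 266 and 233 with both. The groups again did not overlap, and SETBP1 replicate 1 was well above the other two of its group. Ngp fell by 0.98 with SETBP1 against empty (SE 0.19, adjusted p 0.0076), fell by 1.95 with NRAS against empty (SE 0.20, adjusted p 6.04e-06), fell by 2.09 with both against NRAS (SE 0.20, adjusted p 8.63e-05) and fell by 3.06 with both against SETBP1 (SE 0.21, adjusted p 9.22e-08). Ngp stood at -0.82 and -3.22 in the comparisons with the SETBP1 group without its replicate 3, and both passed. The ratio of Camp to Ngp counts was 0.0692 ± 0.0031 in the empty group, 0.0942 ± 0.0128 with SETBP1, 0.0551 ± 0.00533 with NRAS and 0.054 ± 0.00248 with both (SD, n = 3).

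Lcn2, the lipocalin that binds bacterial siderophores, stood at 825, 794 and 862 normalised CPM in the empty libraries, 559, 416 and 503 with SETBP1, 568, 482 and 494 with NRAS, and 222, 208 and 268 with both. SETBP1 alone and NRAS alone overlapped, and both together lay below either. Pglyrp1, which binds bacterial peptidoglycan, had means of 147 ± 8.55, 75.4 ± 9.7, 50.4 ± 8.95 and 15.2 ± 0.37 normalised CPM (SD, n = 3) in the empty, SETBP1, NRAS and both groups. Lrg1, a leucine-rich glycoprotein stored in neutrophil granules, had means of 80.6 ± 6.64, 41.5 ± 13.2, 11.5 ± 0.11 and 3.56 ± 0.421. Each was lower in the 3 libraries with both than in any other library. Against NRAS alone, Pglyrp1 fell by 1.73 (SE 0.14, adjusted p 3.19e-05) and Lrg1 fell by 1.69 (SE 0.25, adjusted p 0.00332) on the log2 scale.

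Chil1 and Chil3 encode chitinase-like proteins that bind sugars and have no known enzyme activity. Chil3 was 6727, 5947 and 6219.5 normalised CPM in the empty libraries, 4622, 2939 and 4642 with SETBP1, 1794, 1756 and 1891 with NRAS, and 1059, 956 and 1085 with both. Chil1 was 69.3, 58.8 and 69.4 in the empty libraries, 40.7, 29.5 and 25.9 with SETBP1, 5.02, 5.27 and 4.94 with NRAS, and 3.63, 3.71 and 2.02 with both. No groups overlapped for either gene, and Chil1 had its widest gap at NRAS. With NRAS against empty, Chil1 fell by 3.69 (SE 0.21, adjusted p 2.23e-08) and Chil3 fell by 1.80 (SE 0.14, adjusted p 4.79e-07). Between both and NRAS, Chil3 fell by 0.81 (SE 0.14, adjusted p 0.00643), while the difference in Chil1 of -0.70 (SE 0.26, adjusted p 0.267) did not pass.

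Retnlg, a resistin-like secreted protein of neutrophils, was low in both groups that carried SETBP1. Its normalised CPM was 24.1, 32.5 and 26.3 in the empty libraries, 5.05, 9.01 and 1.77 with SETBP1, 33.5, 22.6 and 27.7 with NRAS, and 4.75, 2.69 and 5.38 with both. The empty and NRAS libraries overlapped, the SETBP1 libraries and those with both overlapped, and the 2 sets were apart. Retnlg fell by 2.40 with SETBP1 against empty (SE 0.38, adjusted p 0.00262) and fell by 2.71 with both against NRAS (SE 0.39, adjusted p 0.00259), the largest fall of the 33 genes in each. NRAS against empty gave 0.02 (SE 0.33, adjusted p 0.972), and both against SETBP1 gave -0.29 (SE 0.43, adjusted p 0.615). Without SETBP1 replicate 3, the lowest of its group, the log2 fold change of Retnlg was -1.98 with SETBP1 against empty (adjusted p 3.99e-05) and -0.71 with both against SETBP1 (adjusted p 0.0633).

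Hp encodes haptoglobin, which binds free haemoglobin and is stored in specific granules. It was 510.4, 540.2 and 453 normalised CPM in the empty libraries, 642, 691 and 971 with SETBP1, 147, 144 and 108 with NRAS, and 105, 94.9 and 111 with both. It was the only one of the 33 genes past the threshold in the higher direction with SETBP1 (log2 0.62, SE 0.15, adjusted p 0.0171), where 8.31% of all genes were higher, and it is named for that after its values were seen. Without SETBP1 replicate 3, the highest library, it rose by 0.41 (adjusted p 0.00871), and without empty replicate 1, without empty replicate 3 or fitted on these 2 groups alone it did not pass. Hp fell by 1.91 with NRAS against empty (SE 0.15, adjusted p 6.73e-07) and fell by 2.89 with both against SETBP1 (SE 0.16, adjusted p 1.37e-08; -2.69 without SETBP1 replicate 3).

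Wfdc21, a small secreted protein with a WAP domain, and Olfm4, an olfactomedin found in a subset of neutrophils, complete the secreted group. Wfdc21 had means of 52.1 ± 10.8, 36.6 ± 1.45, 17 ± 2.25 and 9.21 ± 2.07 normalised CPM (SD, n = 3) in the empty, SETBP1, NRAS and both groups. Olfm4 had 121, 56 and 61 counts in the empty libraries, 40, 10 and 115 with SETBP1, 36, 14 and 10 with NRAS, and 0, 5 and 9 with both. In normalised CPM the SETBP1 libraries of Olfm4, at 1.31 to 13.6, lay on both sides of the empty ones, at 7.11 to 13.4. Olfm4 fell by 3.38 with both against SETBP1 (SE 0.88, adjusted p 0.00759), and this did not pass with limma-voom. Without SETBP1 replicate 3, the highest of its group, that value was -2.28 (adjusted p 0.0166), and Olfm4 also fell by 1.63 with SETBP1 against empty (adjusted p 0.0377).

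**Figure D2:**
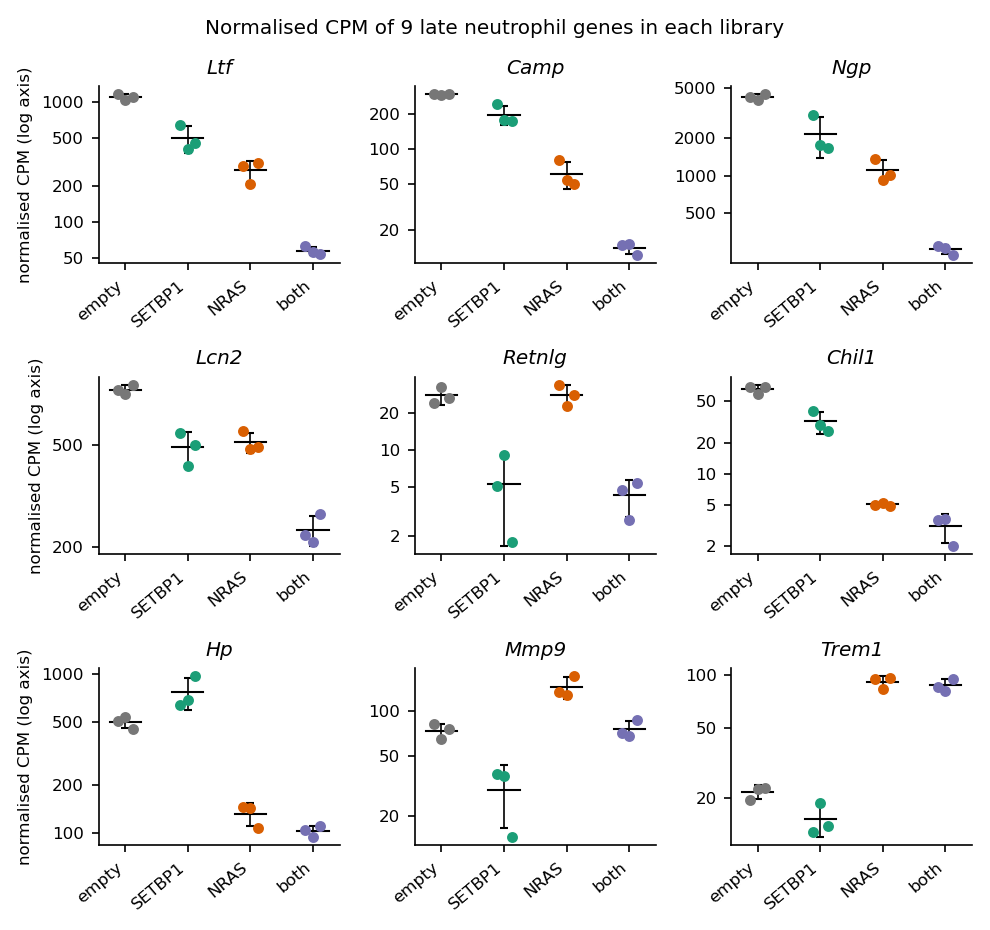
Points are single libraries, bars the mean and error bars the SD of 3 libraries, in normalised CPM on log axes that differ between the 9 genes. Ltf, Camp and Ngp step down from empty to SETBP1 to NRAS to both, Retnlg is low in both groups with SETBP1, and Trem1 is high in both groups with NRAS.

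Mmp8, Mmp9 and Mmp25 encode metalloproteases that digest collagen and other matrix proteins, with Mmp9 the gelatinase that names the gelatinase granules. Mmp8 was 283, 302 and 455 normalised CPM in the empty libraries, 183, 198 and 446 with SETBP1, 129, 115 and 113 with NRAS, and 167, 175 and 237 with both. Mmp9 was 81.4, 65.6 and 75.6 in the empty libraries, 38.3, 37.2 and 14.5 with SETBP1, 134, 128 and 171 with NRAS, and 71.8, 68.2 and 86.7 with both. With NRAS alone, Mmp9 was highest and Mmp8 lowest of the 4 groups. With NRAS against empty, Mmp9 rose by 0.96 (SE 0.24, adjusted p 0.00809) and Mmp8 fell by 1.54 (SE 0.29, adjusted p 0.00109). With SETBP1 against empty, Mmp9 fell by 1.31 (SE 0.26, adjusted p 0.00761), and the fall was 0.98 without SETBP1 replicate 3 (log2 fold change -0.98, adjusted p 0.000116). With both against NRAS, neither passed (Mmp9 -0.94, SE 0.24, adjusted p 0.0761, and Mmp8 0.70, SE 0.29, adjusted p 0.339). When SETBP1 replicate 3 was left out of the shared fit, both genes passed there, beside 7.52% of all genes. Their values were then -0.94 for Mmp9 (adjusted p 1.59e-05) and 0.70 for Mmp8 (adjusted p 0.00414). Mmp9 also passed with DESeq2 and limma-voom. The groups did not overlap for either gene, and of all genes 12.9% were lower and 12.3% higher without overlap. Mmp9 was higher with both than with SETBP1 (1.34, SE 0.26, adjusted p 0.00105; 1.00 without SETBP1 replicate 3). Mmp8 had a difference of -0.33 with SETBP1 against empty (SE 0.28, adjusted p 0.427), and without SETBP1 replicate 3 it fell by 0.86 (adjusted p 0.00128). Mmp25 had between 0 and 38 counts in a library, and its means of 3.51 ± 1.06, 1.37 ± 1.69, 2.35 ± 0.609 and 1.28 ± 0.612 normalised CPM (SD, n = 3) gave no difference past the threshold in any of the 4 comparisons.

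The phagocyte oxidase makes superoxide from oxygen at the membrane. Cybb and Cyba encode its membrane chains, and Ncf1 and Ncf4 encode cytosolic subunits. Cybb was 411, 425 and 427 normalised CPM in the empty libraries, 417, 444 and 422 with SETBP1, 229.9, 231 and 229 with NRAS, and 223, 213 and 248 with both. It fell by 0.87 with NRAS against empty (SE 0.07, adjusted p 5e-07) and fell by 0.91 with both against SETBP1 (SE 0.07, adjusted p 2.73e-07). The empty and SETBP1 libraries overlapped, as did the NRAS libraries and those with both. Cyba was 645, 715 and 667 in the empty libraries, 719, 782 and 1125 with SETBP1, 624, 589 and 481 with NRAS, and 588, 544 and 645 with both. Its NRAS libraries lay below the empty ones by a difference of -0.26 that did not pass (SE 0.14, adjusted p 0.19), while with both against SETBP1 it fell by 0.56 (SE 0.14, adjusted p 0.00666). SETBP1 against empty gave 0.02 for Cybb (SE 0.07, adjusted p 0.849) and 0.37 for Cyba (SE 0.14, adjusted p 0.0905). Leaving out SETBP1 replicate 3, the highest for Cyba, gave Cyba 0.15 against empty and -0.34 with both against SETBP1, and gave Cybb 0.03 and -0.92; as before, only the values against SETBP1 passed.

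Ncf1 had means of 692 ± 20.8, 578 ± 67.6, 639.6 ± 32.4 and 547 ± 17.9 normalised CPM (SD, n = 3) in the empty, SETBP1, NRAS and both groups. Its fall of 0.26 with SETBP1 against empty (log2 fold change -0.26, SE 0.08, adjusted p 0.0482) was near the threshold and was lost under 13 of 20 other settings, though not without SETBP1 replicate 3 (-0.35). Ncf4 had means of 217 ± 2.71, 243 ± 64, 167 ± 17 and 177 ± 9.57. It fell by 0.46 with both against SETBP1 (SE 0.14, adjusted p 0.0163), or -0.22 without SETBP1 replicate 3 (adjusted p 0.0241), and differed by -0.37 with NRAS against empty (SE 0.14, adjusted p 0.0545). Between both and NRAS, none of the 4 oxidase genes passed, and their log2 fold changes ran from -0.23 to 0.08.

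Fpr1 and Fpr2 encode receptors for formyl peptides, which bacteria release, and lie 3885 bases apart on chromosome 17. Fpr1 was 13.7, 15.6 and 14.2 normalised CPM in the empty libraries, 29.6, 26.1 and 35.2 with SETBP1, 8.19, 9.87 and 11.1 with NRAS, and 10.3, 4.73 and 21.9 with both. Fpr2 was 12.2, 12.8 and 9.57 in the empty libraries, 18.7, 17 and 17.7 with SETBP1, 7.79, 8.25 and 7.6 with NRAS, and 7.97, 4.35 and 10.1 with both. Both were highest in all 3 SETBP1 libraries, and both had their widest spread where the 2 vectors were combined. Against empty, SETBP1 gave 1.07 for Fpr1 (SE 0.35, adjusted p 0.0539) and 0.62 for Fpr2 (SE 0.23, adjusted p 0.077), neither past the threshold. With both against SETBP1, Fpr1 fell by 1.30 (SE 0.35, adjusted p 0.0095) and Fpr2 fell by 1.25 (SE 0.24, adjusted p 0.00089). Leaving out SETBP1 replicate 3, Fpr1 was past the threshold against empty (0.94, adjusted p 0.0446) and Fpr2 was not (0.63, adjusted p 0.062), and the falls with the 2 vectors combined against SETBP1 were kept (-1.18 and -1.26). Ltb4r1, a leukotriene receptor, had means of 159 ± 3.91, 98.3 ± 9.55, 138 ± 6.81 and 116 ± 5.56 normalised CPM (SD, n = 3). It was lower with SETBP1 than with empty vectors (log2 fold change -0.69, and -0.77 without SETBP1 replicate 3), in contrast to the values of Fpr1 and Fpr2.

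Of the surface proteins, 6 of the 7 listed genes were measured. Cd177, a membrane-anchored protein of neutrophils that is also stored in specific granules, was 212, 187 and 216 normalised CPM in the empty libraries, 117, 67 and 65.1 with SETBP1, 77.2, 62.3 and 73.9 with NRAS, and 25.2, 22.6 and 24.9 with both. Itgb2l, an integrin beta chain related to that of the leukocyte integrins, was 45.2, 38.3 and 42.9 in the empty libraries, 27, 20.1 and 12.7 with SETBP1, 24.8, 13.3 and 16.6 with NRAS, and 4.19, 2.81 and 3.9 with both. In each gene the SETBP1 and NRAS groups overlapped, and the libraries with both lay below all the rest. With SETBP1 against empty, Cd177 fell by 1.30 (SE 0.18, adjusted p 0.00134) and Itgb2l fell by 1.08 (SE 0.25, adjusted p 0.0155). Both passed without SETBP1 replicate 3 as well (Cd177 -1.15, Itgb2l -0.84), while Itgb2l did not pass without empty replicate 1, without empty replicate 3 or in the fit on these 2 groups alone. With both against NRAS, Itgb2l fell by 2.33 (SE 0.31, adjusted p 0.00163).

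Ceacam1 and Ceacam10 encode related adhesion proteins, the first an inhibitory receptor with a cytoplasmic tail and the second a secreted form. They lie 677 kb apart on chromosome 7, and Ceacam10 lies 16.8 kb from Cd177. Their sequences before the start are shown because the genes are near copies there while their RNA was not. Ceacam1 is at chr7:25477648-25477875 (minus) and Ceacam10 at chr7:24776917-24777166 (plus), from RefSeq, GRCm38.p6, with capitals at the bases that differ when the stretches are laid side by side without gaps.
Ceacam1: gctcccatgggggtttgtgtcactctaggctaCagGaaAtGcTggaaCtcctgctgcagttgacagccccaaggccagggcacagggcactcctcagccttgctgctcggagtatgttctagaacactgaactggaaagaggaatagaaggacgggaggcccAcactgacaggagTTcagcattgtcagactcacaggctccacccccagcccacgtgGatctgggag
Ceacam10: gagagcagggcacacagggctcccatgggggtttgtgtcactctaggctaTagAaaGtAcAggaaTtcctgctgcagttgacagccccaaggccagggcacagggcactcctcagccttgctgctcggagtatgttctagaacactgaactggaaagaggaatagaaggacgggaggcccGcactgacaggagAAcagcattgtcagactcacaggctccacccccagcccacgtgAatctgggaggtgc
Of 228 bases compared, 218 matched (95.6%) and 10 differed. Ceacam1 was 75.8, 71.1 and 80.8 normalised CPM in the empty libraries, 50.8, 30.3 and 35.2 with SETBP1, 80, 75.6 and 87 with NRAS, and 56.8, 58.3 and 59.8 with both. Ceacam10 was 17.7, 17.9 and 17 in the empty libraries, 8.78, 7.57 and 4.73 with SETBP1, 5.94, 3.79 and 8.11 with NRAS, and 1.54, 0.767 and 0.807 with both. Ceacam1 overlapped between empty and NRAS, where Ceacam10 did not. With NRAS against empty, Ceacam10 fell by 1.55 (SE 0.28, adjusted p 0.000884) and Ceacam1 differed by 0.09 (SE 0.14, adjusted p 0.67). Between both and NRAS, Ceacam10 fell by 2.52 (SE 0.38, adjusted p 0.00364) and Ceacam1 differed by -0.47 (SE 0.15, adjusted p 0.15). With SETBP1 against empty, Ceacam1 fell by 0.97 (SE 0.15, adjusted p 0.00242) and Ceacam10 fell by 1.32 (SE 0.28, adjusted p 0.01), or -0.90 and -1.10 without SETBP1 replicate 3, both past the threshold. The ratio of Ceacam10 to Ceacam1 counts was 0.232 ± 0.0208 in the empty group, 0.186 ± 0.0589 with SETBP1, 0.0725 ± 0.0216 with NRAS and 0.0179 ± 0.00795 with both (SD, n = 3). As close copies the Ceacam genes may have shared reads in the counting, so their split is uncertain, and Ceacam10 had only 6 to 11 counts in the libraries with both.

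Trem1 and Trem3 encode activating receptors of myeloid cells and lie 750 bases apart on chromosome 17. Trem1 was 19.5, 22.6 and 22.9 normalised CPM in the empty libraries, 12.9, 18.7 and 13.8 with SETBP1, 94.3, 82.9 and 95.8 with NRAS, and 84.6, 81.2 and 94.7 with both. Trem3 was 146, 137 and 149.5 in the empty libraries, 136, 149.6 and 147 with SETBP1, 120.4, 108 and 91.1 with NRAS, and 85.5, 79.8 and 80.9 with both. All 6 libraries with NRAS were above all 6 without it for Trem1 and below them for Trem3. Trem1 fell by 0.52 with SETBP1 against empty (SE 0.14, adjusted p 0.0298), and this held under 15 of 20 other settings. It was -0.46 without SETBP1 replicate 3 (adjusted p 0.0466). Trem3 did not pass there (SE 0.09, adjusted p 0.992). With NRAS against empty, Trem1 rose by 2.07 (SE 0.14, adjusted p 8.28e-08), the largest rise among the 33 genes, and Trem3 fell by 0.44 (SE 0.10, adjusted p 0.00308). With both against SETBP1, Trem1 rose by 2.52 (SE 0.14, adjusted p 1.41e-08) and Trem3 fell by 0.81 (SE 0.10, adjusted p 1.8e-05), or 2.47 and -0.80 without SETBP1 replicate 3. With both against NRAS, neither passed (Trem1 -0.07, SE 0.13, adjusted p 0.944; Trem3 -0.38, SE 0.10, adjusted p 0.0699). The ratio of Trem1 to Trem3 counts was 0.151 ± 0.0159 with empty vectors and 0.104 ± 0.0176 with SETBP1, against 0.867 ± 0.16 with NRAS and 1.06 ± 0.0971 with both (SD, n = 3).

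**Figure D3:**
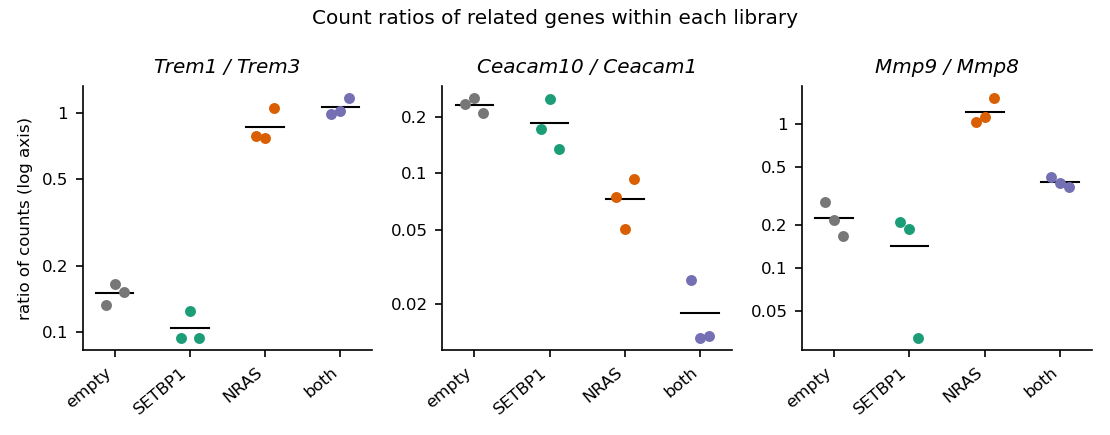
Points are the ratio of raw counts of a pair of related genes in each library, on log axes, and bars are means of 3 libraries. The ratio of Trem1 to Trem3 is high in the 6 libraries with NRAS, that of Ceacam10 to Ceacam1 is lowest with both, and that of Mmp9 to Mmp8 is highest with NRAS alone.

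The cytoplasmic and other membrane proteins were 5 of the 33 genes, with median log2 fold changes of -0.47, -0.72, -0.48 and -0.77 in the 4 comparisons. Serpinb1a, an inhibitor of neutrophil serine proteases, was 548, 581 and 582 normalised CPM in the empty libraries, 455, 380.3 and 396 with SETBP1, 382, 323 and 335 with NRAS, and 247, 229.8 and 234 with both. Its libraries with both lay below all others, and it was the only one of these 5 genes to pass with both against NRAS (log2 fold change -0.55). Abca13, a large membrane transporter, had means of 12.9 ± 2.38, 6.7 ± 1.75, 5.63 ± 1.01 and 3.27 ± 0.512 normalised CPM (SD, n = 3) in the empty, SETBP1, NRAS and both groups. Ifitm6, an interferon-induced transmembrane family member, had means of 44.7 ± 5.45, 32.5 ± 7.97, 26.4 ± 2.16 and 19 ± 3.12. Padi4, which converts arginine to citrulline in histones, had means of 178 ± 17.1, 123 ± 28.2, 139.6 ± 6.68 and 113 ± 9.34. Anxa1, an annexin that limits neutrophil recruitment, had means of 396 ± 19.3, 312 ± 59, 312 ± 12.9 and 319.9 ± 10.1. The mean of Anxa1 was nearly the same in the SETBP1, NRAS and both groups, and its fall with SETBP1 against empty (log2 fold change -0.35) was lost under 12 of 20 other settings, though not without SETBP1 replicate 3 (-0.50).

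Levels can be compared between genes only per length. In normalised CPM per kb of exon, Chil3 was highest of the 33 genes in every group, with 3859 in empty, 2492 with SETBP1, 1111 with NRAS and 633 with both. Ngp went from 3477 in empty to 211 with both. Cyba, at 650.1, 842, 543 and 569.9 in the 4 groups, stayed among the 3 highest throughout. Camp went from rank 4 in empty to rank 19 with both, and Ltf from rank 5 to rank 20.

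SETBP1 alone against empty asks what the SETBP1 vector does without NRAS. It passed the threshold for 22 of the 33 genes, 21 lower and 1 higher (Hp), where 14.9% of all 10993 genes passed with 6.55% lower and 8.31% higher. The median log2 fold change of the 33 was -0.58, against -0.01 for all genes tested. By role, 9 of 12 secreted granule genes, 5 of 6 surface protein genes and 4 of 5 cytoplasmic and other membrane genes were lower. The oxidase genes gave 1 of 4, and the metalloprotease and chemoattractant receptor genes 1 of 3 each. Without SETBP1 replicate 3 the count was 27 (25 lower, and Hp and Fpr1 higher), with 15.3% of all genes, and all 22 calls were kept. It was 13 without empty replicate 1, where 4.44% of all genes passed, and 14 without empty replicate 3, where 3.5% did. Fitted on these 2 groups alone, 7 passed, 6 lower, beside 1.03% of all genes.

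NRAS alone against empty asks what the NRAS vector does without SETBP1. It passed for 22 of the 33 genes, 20 lower and 2 higher (Mmp9 and Trem1), where 32.5% of all genes passed, 15.5% lower and 17% higher. Of all genes, 1708 of the 3576 past the threshold were lower, and with library-size scaling 2265 of 3644. The median of the 33 was -0.76, against -0.01 for all. Among the secreted granule genes 10 of 12 were lower, with a median of -1.89. Besides those given above, Lrg1 fell by 2.81 (SE 0.20, adjusted p 2.07e-07). None of the 3 chemoattractant receptor genes passed. When SETBP1 replicate 3 was left out of the shared estimate of spread, 28 of the 33 and 47% of all genes passed, and Fpr2 and Ltb4r1 were among the 28.

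Both against NRAS asks what SETBP1 adds where NRAS is present. It passed for 13 of the 33 genes, 13 lower and 0 higher, where 1.91% of all genes passed, 1.38% lower and 0.528% higher. The 0 higher is near the share of all genes, 0.528%, and so says little about the 33 genes. With DESeq2 and limma-voom it was 0 as well, while Mmp8 was higher when SETBP1 replicate 3 was left out or these 2 groups were fitted alone. The median of the 33 was -0.70, against 0 for all genes. The 13 were 9 of the 12 secreted granule genes (Ltf, Camp, Ngp, Lcn2, Pglyrp1, Chil3, Retnlg, Wfdc21 and Lrg1), 3 surface protein genes (Cd177, Ceacam10 and Itgb2l) and Serpinb1a. Wfdc21 (log2 fold change -0.88, adjusted p 0.0311) was lost under 6 of 20 other settings, with limma-voom and without any 1 of the NRAS libraries or replicate 1 or 2 with both, and Lrg1 was lost with limma-voom; the other 11 held under all 20. At an unadjusted p under 0.05, 24 of the 33 passed in either direction, where 11.7% of all genes did. Without SETBP1 replicate 3, which is in neither group but in the shared estimate of spread, 21 of the 33 passed and 7.52% of all genes. The genes gained were Ltb4r1, Trem3, Mmp9, Padi4, Ncf1, Ceacam1 and Hp, which were lower, and Mmp8, which was higher. Fitted on these 2 groups alone, 22 passed, 21 lower, beside 8.37% of all genes.

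Both against SETBP1 asks what NRAS adds where SETBP1 is present. It passed for 27 of the 33 genes, 23 lower and 4 higher (Mmp9, Ltb4r1, Ceacam1 and Trem1), where 42.4% of all genes passed, 21.5% lower and 20.9% higher. Of all genes, 2368 of the 4661 past the threshold were lower, and with library-size scaling 2888 of 4608. The median of the 33 was -1.04, against 0 for all. In the secreted granule genes 11 of 12 were lower, with a median of -2.98. Besides those above, Lrg1 fell by 3.54 (SE 0.23, adjusted p 6.86e-08), Chil1 fell by 3.35 (SE 0.23, adjusted p 8.53e-08) and Ceacam10 fell by 2.75 (SE 0.38, adjusted p 6.41e-05). Their values without SETBP1 replicate 3 were -3.52, -3.49 and -2.97. Ceacam1 was higher with both than with SETBP1 (0.59, SE 0.15, adjusted p 0.00667) but lay below the empty group, and the rise of Ltb4r1 (log2 fold change 0.24) was lost under 11 of 20 other settings. The values of Ceacam1 and Ltb4r1 without SETBP1 replicate 3 were 0.52 and 0.32, and 28 of the 33 genes passed, all 27 and Anxa1, beside 46.5% of all genes.

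**Figure D4:**
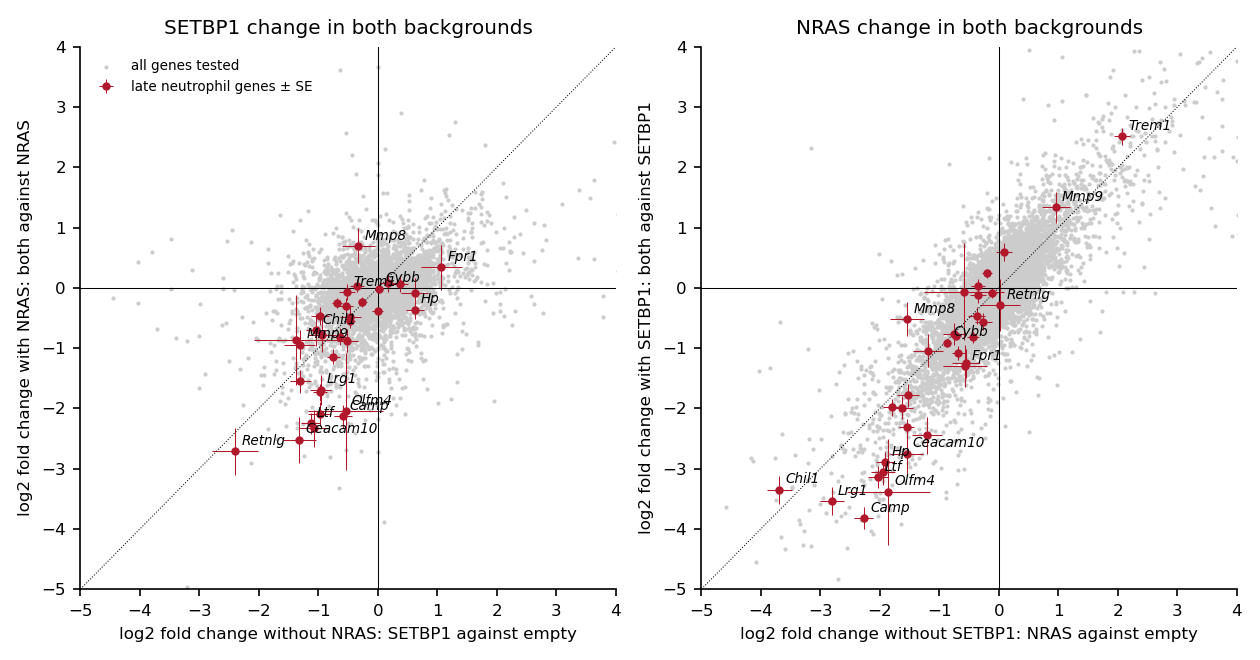
Left, the log2 fold change with SETBP1 in the empty background is on the x axis and with NRAS present on the y axis; right, the log2 fold change with NRAS without SETBP1 is on the x axis and with SETBP1 on the y axis. Coloured points are the 33 genes with their SE, grey points all genes tested (a few lie outside the axes), and Camp, Ltf and Ngp lie low on both panels while Trem1 and Mmp9 stand high on the right.

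The pairs of comparisons whose groups share no library can be set beside each other. All were fitted with 1 estimate of spread over the 12 libraries, so their calls are not independent. SETBP1 against empty and both against NRAS were lower together for 12 genes, 57.1% of the 21 lower in the first and 92.3% of the 13 lower in the second. Over all genes tested, 79 were lower in both, 11% of 720 and 52% of 152. Of the 13, Wfdc21 was the one that missed the threshold with SETBP1 against empty (log2 fold change -0.51, adjusted p 0.0532), though its 3 SETBP1 libraries lay below the empty ones; it passed there without SETBP1 replicate 3 (-0.50, adjusted p 0.0394). NRAS against empty and both against SETBP1 were lower together for 18 genes, 90% of 20 and 78.3% of 23, where all genes gave 1345, 78.7% of 1708 and 56.8% of 2368. Leaving out SETBP1 replicate 3, the first pair shared 18 genes, 72% of 25 and 90% of 20, beside 27.9% and 50.1% for all genes, and the second shared 22, 84.6% of 26 and 95.7% of 23, beside 72% and 71.1%.

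Whether the change with SETBP1 differed by the presence of NRAS was tested by the interaction, the change with NRAS present minus the change without it. It passed for 1 of the 33 genes, Camp, in the lower direction, where 0.0455% of all genes passed, 0.0364% lower and 0.0091% higher. Camp fell by 0.58 with SETBP1 in the empty background and fell by 2.13 in the NRAS background, an interaction of -1.55 (SE 0.24, adjusted p 0.0424). Its levels were lower in 3 of 3 SETBP1 libraries than in any empty library and in 3 of 3 libraries with both than in any with NRAS. Of all genes tested, 16.5% were lower without overlap in the first pair of groups and 12.9% in the second. Such separation within each background does not test whether the 2 changes differ. The median of the 33 genes was -0.25, against -0.01 for all genes, and 15 of them had an unadjusted p under 0.05, where 12.9% of all genes did. The call of Camp was lost without any 1 of the empty libraries, without NRAS replicate 2 and without any 1 of the libraries with both, and also with limma-voom, library-size and upper-quartile scaling. Without SETBP1 replicate 3, 9 of the 33 passed, 6 lower, beside 0.99% of all genes, and the interaction of Camp was -1.64 (adjusted p 0.000829).

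**Figure D5:**
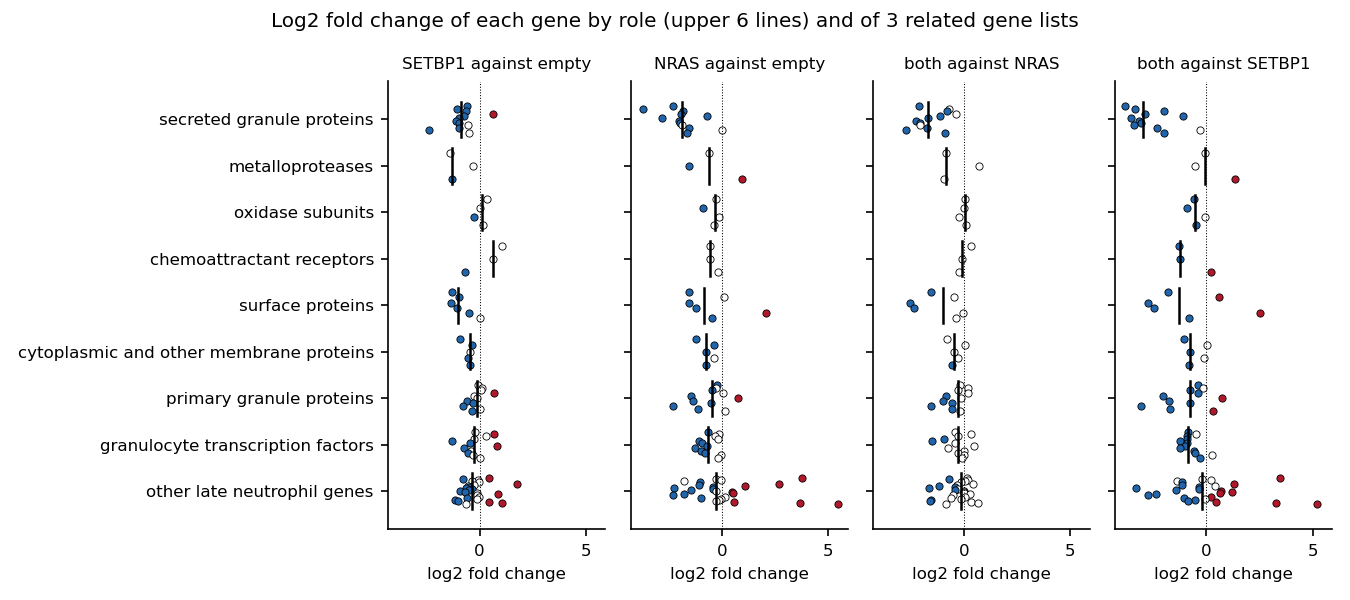
Points are genes at their log2 fold change in each of the 4 comparisons, in lines by role for the 33 genes and for 3 related lists; blue is lower and red higher past the threshold, white is not past it, and the black bar is the median. The secreted granule line has its median at -0.85, -1.89, -1.71 and -2.98 in the 4 panels, and the oxidase line at 0.09, -0.32, 0.03 and -0.51.

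The genes can be set beside 3 further lists. Of all genes tested, 6.55% were lower and 8.31% higher with SETBP1 against empty, and 15.5 and 17% with NRAS against empty. The shares were 1.38 and 0.528% with both against NRAS, and 21.5 and 20.9% with both against SETBP1. Counts of the 3 lists are to be read beside these shares. Of 11 primary granule genes, 4 were lower and 1 higher with SETBP1 against empty, 7 and 1 with NRAS against empty, 5 and 0 with both against NRAS, and 8 and 2 with both against SETBP1. The first and last of these were 5 and 1, and 7 and 2, without SETBP1 replicate 3. All genes then gave 7.73% lower and 7.61% higher in the first, and 22.9 and 23.6% in the last. Mpo, myeloperoxidase, went from 15335 ± 795 normalised CPM in empty to 10193 ± 1336 with SETBP1, 6118 ± 246 with NRAS and 3036 ± 243 with both (SD, n = 3). Elane, neutrophil elastase, went from 6431 ± 531 to 5314 ± 514, 2327 ± 306 and 1309 ± 59. Between both and NRAS, Prss57, a serine protease of primary granules, fell by 1.57 (SE 0.14, adjusted p 4.83e-05), Mpo fell by 1.01 (SE 0.10, adjusted p 8.63e-05) and Elane fell by 0.83 (SE 0.10, adjusted p 0.000986). The ratio of Ltf to Mpo counts was 0.072 ± 0.00418 in empty, 0.0494 ± 0.00974 with SETBP1, 0.0444 ± 0.0102 with NRAS and 0.0188 ± 0.00184 with both, and the SETBP1 and NRAS libraries overlapped. The ratio of Ngp to Elane counts was 0.662 ± 0.0237, 0.418 ± 0.192, 0.474 ± 0.0671 and 0.197 ± 0.0099 in the same order.

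Of 12 transcription factor genes of granulocytes, 2 were lower and 0 higher with both against NRAS. These were Cebpe, whose level was 58.6 ± 2.8, 48.8 ± 17.7, 51 ± 1.6 and 26.1 ± 4.05 normalised CPM (SD, n = 3) in the empty, SETBP1, NRAS and both groups, and Ets1, at 55.4, 22.3, 26.8 and 9.34 on average. Cebpe fell by 0.96 with both against NRAS (SE 0.20, adjusted p 0.0243) and Ets1 fell by 1.52 (SE 0.24, adjusted p 0.00515). In the other comparisons 4 of the 12 were lower and 2 higher with SETBP1 against empty, 7 and 0 with NRAS against empty, and 10 and 0 with both against SETBP1. With both against NRAS, 5 were lower and 1 higher when SETBP1 replicate 3 was left out, beside 7.52% of all genes.

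Of 25 other late neutrophil genes, 10 were lower and 5 higher with SETBP1 against empty, 9 and 8 with NRAS against empty, 7 and 0 with both against NRAS, and 11 and 9 with both against SETBP1. Leaving out SETBP1 replicate 3 gave 12 and 5 in the first of these, 12 and 3 with both against NRAS, and 11 and 10 in the last. All genes then gave 7.73% lower and 7.61% higher, 4.31 and 3.21%, and 22.9 and 23.6% in these 3 comparisons. S100a8 and S100a9, which encode the calprotectin chains, were, as Retnlg was, low in both groups that carried SETBP1. S100a8 was 2226 ± 295, 991 ± 189, 2031 ± 285 and 682 ± 121 normalised CPM (SD, n = 3) and S100a9 was 2545 ± 172, 1253 ± 192, 2131 ± 379 and 695 ± 76.2. With both against NRAS, Fcnb, a ficolin of specific granules, fell by 1.64 (SE 0.24, adjusted p 0.00259), S100a9 fell by 1.62 (SE 0.13, adjusted p 3.45e-05) and S100a8 fell by 1.57 (SE 0.16, adjusted p 0.000147). The largest rises with NRAS against empty were in Stfa2l1, a stefin (5.45, SE 0.47, adjusted p 1.23e-06), Adam8, a membrane protease (3.77, SE 0.13, adjusted p 1.6e-10), and Slpi, a secreted inhibitor of elastase (3.67, SE 0.18, adjusted p 6.14e-09), so the late neutrophil genes did not all move down with NRAS. Stfa2l1 belongs to a family of close copies and its reads may be split among them.

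Markers of other cells moved between the groups as well. The summed level of 12 monocyte and macrophage genes ran from 5194 to 5719.9 normalised CPM in the empty libraries, 5657 to 7538 with SETBP1, 3959 to 4371 with NRAS and 3902 to 4151 with both. Of these 12 genes, 5 were higher and 0 lower with SETBP1 against empty, 1 higher and 7 lower with NRAS against empty, 5 higher and 2 lower with both against NRAS, and 2 higher and 8 lower with both against SETBP1. The summed level of 9 mast cell and basophil genes ran from 3135 to 3226, 1696 to 2431, 732 to 1239 and 409 to 595 in the same order, and that of 5 eosinophil genes from 187 to 329, 14 to 238, 132 to 262 and 27.2 to 109.6. The mast cell and basophil sums stepped down in the same order of groups as the share of the 33 genes. The monocyte sums were lower in all 6 libraries with NRAS than in the 6 without it, overlapped between empty and SETBP1, and overlapped between NRAS and both. SETBP1 replicate 3 had the highest monocyte sum, 7538, and the lowest eosinophil sum, 14. The 5 stem and progenitor genes summed to 526 to 673, 811 to 1129.8, 475 to 602 and 614 to 660.5. Ly6a was the largest part of each sum, with means of 436, 771, 297 and 337, while Kit had means of 65.3, 33.7, 25.8 and 13.2. Of the 5, 1 was higher and 0 lower with SETBP1 against empty, and 1 and 2 with NRAS against empty. The numbers were 0 and 0 with both against NRAS, and 1 and 2 with both against SETBP1. What part these markers of other cells had in the differences of the 33 genes was not tested.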

How the data were processed

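Total RNA was isolated with the RNeasy micro kit and sequenced from SMART-Seq libraries for ultra low input, per the labels' protocols. The authors deposited 1 table of raw, whole-number counts per gene symbol, and the submitters' processing notes name STAR, DESeq2 and the build mm10, with no versions. The counting tool, annotation and strand rule are not given in the sources used here, so close copies and overlapping genes may share reads.

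Log2 fold changes, standard errors and two-sided p-values were computed from these counts with the quasi-likelihood F test of edgeR 4.0.16 (R 4.3.3), with 4 group means over 12 libraries and trimmed mean of M-values (TMM) scaling. Genes were kept by filterByExpr (minimum count 10, minimum total count 15). Passing means a Benjamini-Hochberg adjusted p under 0.05, adjusted in each comparison over all 10993 genes. Normalised CPM is the count per 1000000 of the TMM-scaled library size, and the SE is the log2 fold change over the square root of F. Levels per kb used exon lengths of GENCODE M21. Promoters came from a RefSeq table in GRCm38.p6, the assembly that mm10 names. Precision per gene is limited by the counts, which were lowest for Mmp25, Olfm4 and Ceacam10.

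The genes and lists were chosen with earlier results of these data known. Fold change, SE and adjusted p are printed for at most the 8 largest changes past the threshold per comparison, for genes set beside a close relative, and for at most 3 genes of each other list. The steps were tested on simulated counts. Alternatives were DESeq2 1.42.0, limma-voom (limma 3.58.1), RLE, upper-quartile and library-size scaling, no filter, a fit on the compared groups alone, a block for the replicate number, and leaving out each library.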

Additional observations from a re-analysis of the deposited data

Results flagged for a closer look

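Camp, the cathelicidin gene, is the one gene of the 33 whose change with SETBP1 differed between the empty and the NRAS background by a test of the difference itself. The interaction was -1.55 on the log2 scale (SE 0.24, edgeR quasi-likelihood test, adjusted p 0.0424). Over the alternatives that were run it lay between -1.68 and -1.32, with adjusted p up to 0.194, and it passed under 9 of 19 of them. In normalised CPM, Camp went from a mean of 294 in empty to 197 with SETBP1, and from 61 with NRAS to 14 with both.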

How the results depend on the processing

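Of 85 differences of single genes past the threshold, 60 held under every one of the 20 alternatives that could be run for them and 25 were lost under at least 1; of 1699 values, 1604 kept their direction and call, 95 lost the call and 0 changed sign. Some counts of the 33 genes past the threshold moved by over 1.5 times, and the cause was not tested; the share of all genes in the same fit stands in parentheses. For SETBP1 against empty, 22 (14.9%) became 7 (1.03%) with only the groups compared, 13 (4.44%) without empty replicate 1 and 14 (3.5%) without empty replicate 3, and leaving out single libraries gave 13 to 27. For both against NRAS, 13 (1.91%) became 22 (8.37%) with only the groups compared and 21 (7.52%) without SETBP1 replicate 3, in a range of 12 to 21. For the interaction, 1 (0.0455%) became 5 (0.846%) with DESeq2 (Camp, Pglyrp1, Hp, Ngp and Ltf), 2 (0.0944%) with no low-count filter, and 0 with limma-voom, library-size scaling or upper-quartile scaling. Single libraries left out gave 0 to 9, with 4 (0.684%) without SETBP1 replicate 1, 9 (0.99%) without SETBP1 replicate 3, and 0 without any of the empty libraries, NRAS replicate 2 or any of the libraries with both. For NRAS against empty (22) and both against SETBP1 (27), leaving out single libraries gave 21 to 28 and 25 to 28, within 1.5 times.

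The labels do not say what libraries of the same replicate number share. Deviations from the group means of same-numbered libraries correlated at -0.13 to 0.12 in 18 pairs, of which 1 was over 0.1, so the numbers were not treated as pairs. With the replicate block the counts were 22, 23, 13 and 27 in the 4 comparisons and 1 for the interaction, beside 10.7, 30.4, 1.49, 40.1 and 0.0546% of all genes.

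Sign changes were limited to differences that did not pass. For SETBP1 against empty, library-size scaling gave -0.02 for Cybb and -0.04 for Trem3, and upper-quartile scaling and no filter each gave -0.01 for Trem3. With single libraries left out, Trem3 ran from -0.02 to 0.05 and Ncf4 from -0.07 to 0.29. For NRAS against empty, Retnlg was -0.07 with library-size and -0.04 with upper-quartile scaling and ran from -0.13 to 0.15 with single libraries left out, and Ceacam1 was 0 with library-size scaling. For both against NRAS, leaving out single libraries gave -0.08 to 0.03 for Cybb, -0.03 to 0.15 for Cyba, -0.38 to 0.73 for Fpr1 and -0.36 to 0.20 for Fpr2. For both against SETBP1, it gave -0.71 to 0.30 for Retnlg, -0.75 to 0.02 for Mmp8, -0.64 to 1.57 for Mmp25, -0.18 to 0.01 for Ncf1, -0.23 to 0.09 for Padi4 and -0.10 to 0.19 for Anxa1. In that comparison Mmp25 was 1.23 with limma-voom and 0.01 with the replicate block, and Anxa1 was -0.03 with library-size and -0.01 with upper-quartile scaling.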
